A study of Homo sapiens with 12 samples.

Results

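The STAT3, STAT5 and involution signalling genes described here are 10 genes chosen by name from the per-library count files: LIFR, OSMR, IL6ST, STAT3, STAT5A, STAT5B, SOCS3, CEBPB, CEBPD and LCN2. All 10 were found among the 23228 genes counted, and all 10 were among the 14874 genes with enough counts to be tested. Most cytokines of the IL-6 family bind receptors that share the signalling chain IL6ST. The JAK kinases on those receptors phosphorylate STAT3, which then enters the nucleus and induces its targets, among them its own inhibitor SOCS3. In the mouse mammary gland, STAT5 acts downstream of prolactin and sustains milk-producing cells, while LIF and STAT3 act at weaning, when the gland regresses in the process called involution. CEBPB and CEBPD are transcription factors active in that regression, and LCN2 is a secreted iron-carrier protein of acute-phase and involuting epithelium.

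RNA with poly(A) tails was measured by sequencing in SUM149PT, an established human line of inflammatory breast cancer cells, in 4 groups of 3 libraries (A, B and C). The combination group received 5 µM ipatasertib, which blocks the AKT kinases, together with 5 µM tazemetostat, which blocks the histone methyltransferase EZH2. The ipatasertib group received 5 µM ipatasertib, the tazemetostat group 5 µM tazemetostat, and the DMSO group the vehicle. Tazemetostat or DMSO was present from day -5, ipatasertib was added on day 0 in medium with 2% serum, and all cells were collected after 24 hours, so the exposure to tazemetostat was longer than that to ipatasertib. All libraries come from 1 cell line, and the labels do not say that replicates were separate cultures, so p-values cover only the spread among these libraries, and that spread may be technical.

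Gene counts per library lay between 22355242 and 49970540, and the 10 genes had between 184 and 16084 counts in a library. Within their groups, tazemetostat A and combination B differed most from their replicates. The chi-square statistic per degree of freedom was 17.3 and 19.1 for tazemetostat A against its replicates, and 14.4 and 24.9 for combination B, against 2.64 to 6.68 for the other replicate pairs. Where a call on the 10 genes changed without these libraries, the value without them is given. EZH2 RNA averaged 38.5 CPM (counts scaled to the size of each library with TMM factors) in the combination, 47.8 in ipatasertib, 69.8 in tazemetostat and 64.0 in DMSO; both drugs act on proteins, so transcript levels do not check the labels. Of 8 breast epithelial markers, 1 rose (KRT19, by 0.22) and 6 fell in the combination, among them the basal keratins KRT5 at 54.6 CPM against 633 in DMSO and KRT14 at 2.60 CPM against 22.8. In ipatasertib 0 rose and 7 fell, and in tazemetostat 1 rose and 5 fell. Their summed level was 1825 to 1933 CPM in the combination, 1847 to 2012 in ipatasertib, 2922 to 3231 in tazemetostat and 3428 to 3585 in DMSO. Of 13 marker genes of other cell types, 9 were tested, and the summed level of all 13 was 296 to 348 CPM in the combination, 612 to 643 in ipatasertib, 382 to 424 in tazemetostat and 897 to 943 in DMSO, mostly from COL1A1, DCN and CD68. Of the 9 tested, 3 rose and 4 fell in the combination, 6 rose and 2 fell in ipatasertib, and 1 rose and 4 fell in tazemetostat. The counts in both marker lists stand beside shares over all tested genes. In the combination 36.5% rose and 34.5% fell, in ipatasertib 25.4% and 28.7%, and in tazemetostat 25.1% and 20.9%. COL1A1 and LUM, of fibroblasts, averaged 50.3 and 1.93 CPM in the combination, against 424 and 10.1 in DMSO, while PECAM1, of endothelium, and PTPRC, of blood cells, averaged 4.27 and 1.74 CPM in the combination, against 0.922 and 0.319 in DMSO. Of the receptors that define breast cancer types, 2 of 3 were tested, and ERBB2 was called higher in the combination (0.20), but not without combination A (0.14) or combination C (0.19). The T cell marker CD3E and the myeloid marker LYZ had at most 6 counts in a library. Both sums were lower in the combination, where LCN2 was highest, than in DMSO, and their part in the results was not tested.

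In the combination, LCN2 rose 2.88-fold and STAT5A 1.95-fold over DMSO, CEBPD, STAT5B and CEBPB rose by smaller amounts, and the shared receptor chain IL6ST fell 1.37-fold. OSMR was called lower by a small amount, while STAT3, LIFR and SOCS3 did not pass the test. Ipatasertib alone raised STAT5A, CEBPD and LCN2 and lowered STAT3, LIFR and IL6ST. Tazemetostat alone raised LCN2, LIFR, STAT5B and CEBPB and lowered IL6ST. Counts of genes called were made with the edgeR quasi-likelihood test at a Benjamini-Hochberg adjusted p under 0.05 over all genes tested. Of the 10 genes, 7 were called in the combination (5 higher, 2 lower), where 71% of all tested genes were called, 36.5% higher and 34.5% lower. In ipatasertib 6 were called (3 higher, 3 lower) beside 54.1% of all tested genes, 25.4% higher and 28.7% lower. In tazemetostat 5 were called (4 higher, 1 lower) beside 46%, with 25.1% higher and 20.9% lower. These shares are close to the background, so the number of the 10 that moved does not set them apart. The median size of their log2 change was 0.33 in the combination, 0.25 in ipatasertib and 0.16 in tazemetostat, against 0.45, 0.30 and 0.22 over all tested genes in the same comparisons. Without DMSO B, 2 of the 10 genes were called in tazemetostat, beside 5642 of all tested genes. Without tazemetostat A, 3 of the 10 were called, beside 7212 of all tested genes. With all libraries 6849 of all tested genes were called.

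In a test against a change of at least 1.5-fold, LCN2 and STAT5A were called in the combination, LCN2 in tazemetostat and none in ipatasertib. Of the 14874 genes tested, that test called 3849 in the combination, 1094 in tazemetostat and 1089 in ipatasertib. Of 4 genes whose products the drugs act on or their close relatives, 1 rose and 3 fell in the combination and in ipatasertib, and 0 rose and 1 fell in tazemetostat. These calls are of the test without the 1.5-fold bound, which called 71%, 54.1% and 46% of all tested genes in the same order. EZH1 (0.51) was called higher and EZH2 (-0.73) and AKT1 (-0.40) lower in the combination. The 3 comparisons with DMSO share the DMSO libraries.

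**Figure D1:**
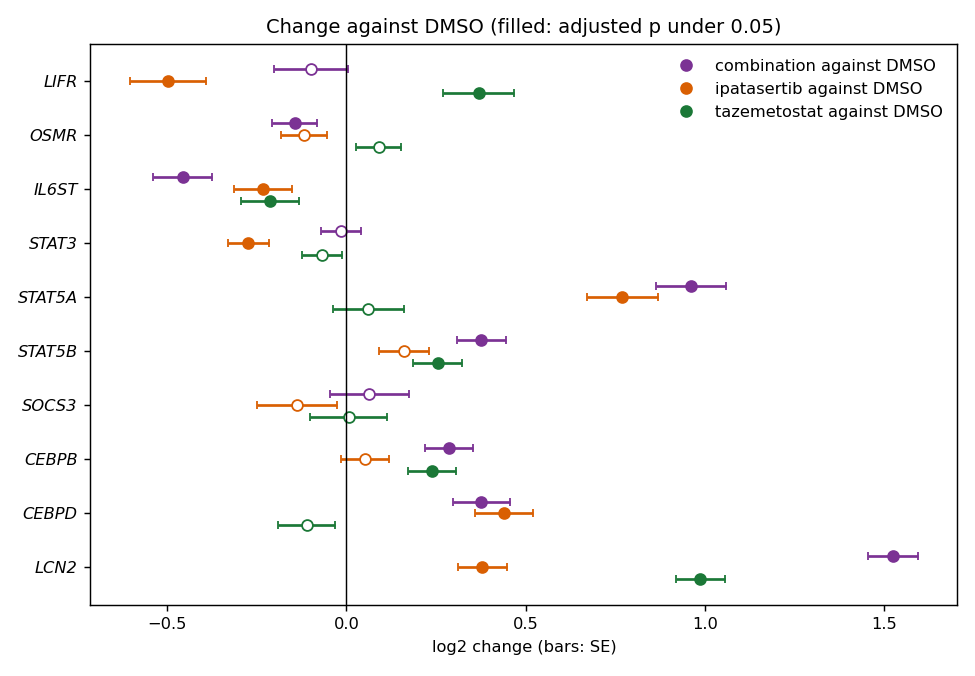
Log2 change of each of the 10 genes (rows) in the combination, ipatasertib and tazemetostat, each against DMSO; bars are standard errors, filled points passed the edgeR test at an adjusted p under 0.05, and 3 libraries make each group. LCN2 lies farthest right in the combination, at 1.53, and in tazemetostat, at 0.99, STAT5A does in ipatasertib, at 0.77, and IL6ST lies left of 0 in all 3.

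LIFR, the receptor chain that binds LIF and pairs with IL6ST, moved in opposite directions with each inhibitor alone. It had 12.5, 14.8 and 12.6 CPM in combination libraries A, B and C, 9.36, 9.73 and 11.4 in ipatasertib, 16.0, 20.9 and 18.3 in tazemetostat, and 13.9, 14.6 and 14.3 in DMSO. The ipatasertib libraries all lay below the DMSO libraries, the tazemetostat libraries all lay above them, and the combination libraries overlapped with DMSO. LIFR fell by 0.50 on the log2 scale in ipatasertib (SE 0.11, edgeR adjusted p = 0.000568) and rose by 0.37 in tazemetostat (SE 0.10, edgeR adjusted p = 0.00497). In the combination the log2 change was -0.10 (SE 0.10, edgeR adjusted p = 0.397). The order of levels was tazemetostat, DMSO, combination, ipatasertib, and of these neighbours only the combination and DMSO did not differ beyond their spread. The difference between the inhibitors, ipatasertib against tazemetostat, was -0.87 (SE 0.10, edgeR adjusted p = 7.47e-07), and it also passed the test against 1.5-fold. Without tazemetostat B, the rise in tazemetostat was 0.24 and was no longer called (edgeR adjusted p = 0.066). Combination against ipatasertib was 0.40 (SE 0.11, edgeR adjusted p = 0.00636), and was not called without ipatasertib A (0.32, edgeR adjusted p = 0.0538).

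Promoter windows of LIFR are shown because it is the one of the 10 genes called higher with one inhibitor and lower with the other. They come from RefSeq (GRCh38.p14) and run from 250 bases before to 50 bases from the annotated start. Windows were found for 9 of the 10 genes, 15 in all. They were searched on both strands for a STAT motif (TTCNNNGAA), a C/EBP motif (TTGCNNAA) and a FOXO motif (GTAAACA), the last for factors that AKT restrains, and matches stand in capitals. Both LIFR windows below lie on the minus strand of chromosome 5, at chr5:38557418-38557717 (first) and chr5:38595356-38595655 (second).
LIFR, first window: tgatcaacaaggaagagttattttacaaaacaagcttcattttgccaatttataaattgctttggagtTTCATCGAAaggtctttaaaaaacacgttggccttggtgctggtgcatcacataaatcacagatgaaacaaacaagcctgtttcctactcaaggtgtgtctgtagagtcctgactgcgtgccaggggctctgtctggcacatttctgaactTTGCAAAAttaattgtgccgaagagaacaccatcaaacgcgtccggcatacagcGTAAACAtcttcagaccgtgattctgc
LIFR, second window: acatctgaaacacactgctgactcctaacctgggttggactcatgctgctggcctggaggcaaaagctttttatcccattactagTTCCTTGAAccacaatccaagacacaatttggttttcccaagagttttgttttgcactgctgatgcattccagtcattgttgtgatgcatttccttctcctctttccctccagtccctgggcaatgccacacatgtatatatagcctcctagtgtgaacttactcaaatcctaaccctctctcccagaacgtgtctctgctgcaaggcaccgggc
The first window holds a STAT match (TTCATCGAA) at -182, a C/EBP match (TTGCAAAA) at -31 and a FOXO match at 24, counted in bases from the start. The second window holds a STAT match (TTCCTTGAA) at -165. The remaining LIFR window, at chr5:38556597-38556896, holds none of the 3 motifs. Of 35116 promoter windows of all genes, 7.66% hold the STAT motif, 10.5% the C/EBP motif and 3.42% the FOXO motif. These matches describe the letters in the windows and were not tied to binding in these cells.

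OSMR, the receptor chain for oncostatin M, had the smallest span of group means among the 3 receptor chains, at 0.23 on the log2 scale. It had 131, 147 and 138 CPM in the combination, 140, 147 and 137 in ipatasertib, 155, 176 and 160 in tazemetostat, and 146, 156 and 158 in DMSO. The combination, ipatasertib and tazemetostat libraries each overlapped with DMSO, and tazemetostat B was the highest library. The log2 change in the combination was -0.14 (SE 0.06, edgeR adjusted p = 0.0483). That call was lost without DMSO B (-0.15), DMSO C (-0.12), ipatasertib C (-0.13), combination A (-0.11) or combination C (-0.13), and when only the combination and DMSO entered the fit (-0.15). In the order tazemetostat, DMSO, ipatasertib, combination, no neighbours differed beyond their spread, while combination against tazemetostat gave -0.23 (SE 0.06, edgeR adjusted p = 0.00324). The single OSMR window, at chr5:38845762-38846061 on the plus strand, holds a C/EBP match (TTGCAAAA) at -73.

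IL6ST, the chain shared by most receptors of the IL-6 family and also known as gp130, fell in every treatment group. It had 127, 152 and 135 CPM in the combination, 158, 160 and 166 in ipatasertib, 140, 183 and 168 in tazemetostat, and 179, 194 and 196 in DMSO. The combination and ipatasertib libraries all lay below DMSO; in tazemetostat, library B overlapped with DMSO and library A was the lowest. The log2 changes were -0.46 (SE 0.08, edgeR adjusted p = 5.26e-05) in the combination, -0.23 (SE 0.08, edgeR adjusted p = 0.0208) in ipatasertib and -0.21 (SE 0.08, edgeR adjusted p = 0.0386) in tazemetostat. From DMSO down, the order was tazemetostat, ipatasertib, combination, and tazemetostat and ipatasertib did not differ beyond their spread. Combination against ipatasertib was -0.22 (SE 0.08, edgeR adjusted p = 0.0365), and that call was lost in 4 of 12 leave-outs of 1 library. The combination call held in every leave-out of 1 library, with changes from -0.51 to -0.41. The ipatasertib call was lost without DMSO B (-0.21), DMSO C (-0.21) or any of ipatasertib A, B and C (-0.21, -0.23 and -0.23). The tazemetostat call was lost without DMSO B (-0.23), DMSO C (-0.19) or tazemetostat A (-0.15). Without both tazemetostat A and combination B, the change in tazemetostat was -0.13 (edgeR adjusted p = 0.0222).

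STAT3, the factor activated through these receptors, was lower in ipatasertib but not in the combination. It had 176, 156 and 173 CPM in the combination, 142, 141 and 139 in ipatasertib, 165, 166 and 157 in tazemetostat, and 171, 170 and 169 in DMSO. The ipatasertib libraries lay below all other libraries, and the combination libraries lay on both sides of DMSO, with library B the lowest. STAT3 fell by 0.27 on the log2 scale in ipatasertib (SE 0.06, edgeR adjusted p = 0.000395). The log2 change was -0.02 (SE 0.06, edgeR adjusted p = 0.818) in the combination and -0.07 (SE 0.06, edgeR adjusted p = 0.34) in tazemetostat. Combination against ipatasertib gave 0.26 (SE 0.06, edgeR adjusted p = 0.00116). From DMSO down, the order was combination, tazemetostat, ipatasertib, and only tazemetostat and ipatasertib differed among these neighbours, by -0.21 for ipatasertib against tazemetostat (edgeR adjusted p = 0.00407), which was not called without ipatasertib C (-0.15). Combination against tazemetostat was 0.05 and not called, but was called without combination B (0.14, edgeR adjusted p = 0.0201) and without tazemetostat A and combination B (0.16, edgeR adjusted p = 0.00521). The counts are of RNA and say nothing of how much STAT3 was phosphorylated.

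STAT5A, the STAT of prolactin signalling most used in the mammary gland, rose wherever ipatasertib was present. It had 12.4, 10.3 and 11.8 CPM in the combination, 10.03, 10.15 and 10.08 in ipatasertib, 6.68, 5.98 and 5.86 in tazemetostat, and 6.00, 5.53 and 6.21 in DMSO. Every library with ipatasertib lay above every library without it. STAT5A rose 1.95-fold in the combination (log2 change 0.96, SE 0.10, edgeR adjusted p = 3.25e-08) and by a log2 change of 0.77 in ipatasertib (SE 0.10, edgeR adjusted p = 2.08e-06). In tazemetostat the log2 change was 0.06 (SE 0.10, edgeR adjusted p = 0.645). The order was combination, ipatasertib, tazemetostat, DMSO. Of these neighbours, only ipatasertib and tazemetostat passed the test. Combination against ipatasertib gave 0.19 (SE 0.09, edgeR adjusted p = 0.116), and 0.26 without combination B (edgeR adjusted p = 0.0372).

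STAT5B, the close copy of STAT5A, rose in the combination and in tazemetostat. It had 41.7, 35.6 and 38.6 CPM in the combination, 32.3, 34.2 and 33.4 in ipatasertib, 36.2, 34.6 and 35.7 in tazemetostat, and 30.0, 28.3 and 31.0 in DMSO. No library of the treatment groups overlapped with DMSO. The log2 change was 0.38 in the combination (SE 0.07, edgeR adjusted p = 6.61e-05), 0.16 in ipatasertib (SE 0.07, edgeR adjusted p = 0.0578) and 0.25 in tazemetostat (SE 0.07, edgeR adjusted p = 0.00492). The order was combination, tazemetostat, ipatasertib, DMSO, and no neighbours in it passed the test. Of these neighbours, only the combination and tazemetostat libraries overlapped. Combination against tazemetostat was 0.12 and not called, but was called without combination B (0.22, edgeR adjusted p = 0.00674) and without tazemetostat A and combination B (0.23, edgeR adjusted p = 0.00209). Without DMSO B, the tazemetostat change was 0.19 and was not called. The ipatasertib change was called without tazemetostat A (0.17), combination A (0.17), combination B (0.18) or combination C (0.19), and also with RLE size factors (0.18), with DESeq2 (0.18), without a filter on low counts (0.19) and with only ipatasertib and DMSO in the fit (0.19). STAT5A and STAT5B share 507 stretches of 50 bases, 8.61% of those of STAT5A and 7.81% of those of STAT5B, so a part of their reads may have been left uncounted.

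**Figure D2:**
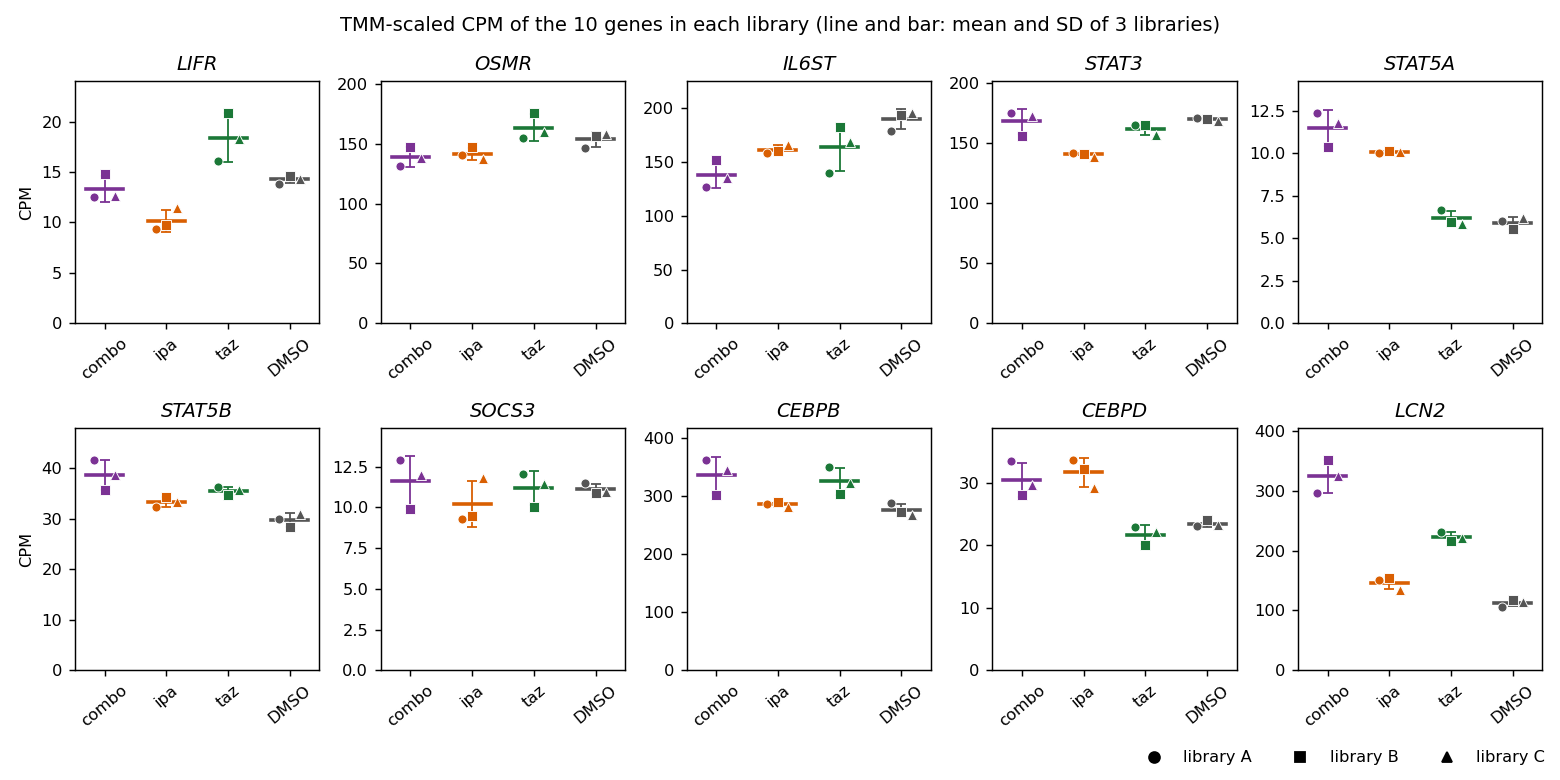
TMM-scaled CPM of each of the 10 genes in every library; columns are the combination (combo), ipatasertib (ipa), tazemetostat (taz) and DMSO, symbols are libraries A, B and C, and lines and bars are the mean and SD of 3 libraries. LCN2 shows 4 separate levels, from a mean of 324 CPM in the combination down to 113 in DMSO, STAT5A is high in both groups with ipatasertib, and SOCS3 overlaps throughout.

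SOCS3, the inhibitor that STAT3 induces against its own receptor complex, did not pass the test in any comparison. It had 12.9, 9.90 and 12.01 CPM in the combination, 9.28, 9.47 and 11.8 in ipatasertib, 12.1, 10.03 and 11.4 in tazemetostat, and 11.5, 10.9 and 10.95 in DMSO. The groups overlapped in every pair. The log2 change was 0.06 (SE 0.11) in the combination, -0.14 (SE 0.11) in ipatasertib and 0.01 (SE 0.11) in tazemetostat, with edgeR adjusted p-values of 0.619, 0.314 and 0.965. Combination B was the lowest combination library. Without combination B, combination against ipatasertib was called at 0.30 (edgeR adjusted p = 0.0288), and without tazemetostat A and combination B, combination against tazemetostat was called at 0.25 (edgeR adjusted p = 0.0314).

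CEBPB, a C/EBP transcription factor with a role in mammary growth and regression in the mouse, rose with tazemetostat. It had 363, 302 and 345 CPM in the combination, 288, 290 and 281 in ipatasertib, 350, 304 and 323 in tazemetostat, and 288, 272 and 268 in DMSO. Libraries with tazemetostat lay above all libraries without it. CEBPB rose by a log2 change of 0.29 in the combination (SE 0.07, edgeR adjusted p = 0.000805) and of 0.24 in tazemetostat (SE 0.07, edgeR adjusted p = 0.00678). In ipatasertib it was 0.05 (SE 0.07, edgeR adjusted p = 0.53). The order was combination, tazemetostat, ipatasertib, DMSO, and only tazemetostat and ipatasertib differed among neighbours, by -0.19 for ipatasertib against tazemetostat (edgeR adjusted p = 0.0232). The rise in tazemetostat was not called without DMSO B (0.20) or tazemetostat A (0.15). The difference between the inhibitors was lost in 8 of 12 leave-outs of 1 library, with the smallest change, -0.09, without tazemetostat A. That difference was also not called with RLE size factors (-0.15), total counts alone (-0.14), no filter on low counts (-0.15) or DESeq2 (-0.15). Combination against tazemetostat was 0.05 and not called, but was called without combination B (0.16, edgeR adjusted p = 0.0201). With both tazemetostat A and combination B left out, combination against tazemetostat was called at 0.22 (edgeR adjusted p = 0.000328) and ipatasertib against tazemetostat was not, at -0.09 (edgeR adjusted p = 0.0973).

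CEBPD, a C/EBP factor that STAT3 induces in the mouse gland, rose with ipatasertib. It had 33.4, 28.1 and 29.7 CPM in the combination, 33.6, 32.1 and 29.2 in ipatasertib, 22.9, 20.0 and 22.1 in tazemetostat, and 23.0, 24.0 and 23.2 in DMSO. As with STAT5A, every library with ipatasertib lay above every library without it. The log2 change was 0.38 in the combination (SE 0.08, edgeR adjusted p = 0.000318) and 0.44 in ipatasertib (SE 0.08, edgeR adjusted p = 0.000116). In tazemetostat it was -0.11 (SE 0.08, edgeR adjusted p = 0.269), and -0.17 without tazemetostat A and combination B (edgeR adjusted p = 0.0371). The order was ipatasertib, combination, DMSO, tazemetostat, and of these neighbours only the combination and DMSO passed the test. The tazemetostat libraries all lay below the DMSO libraries. CEBPB was thus higher in both groups with tazemetostat and CEBPD in both with ipatasertib, a difference between the genes that was not tested.

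LCN2, the secreted protein also called lipocalin 2, rose with each inhibitor and most with both. It had 296, 352 and 324 CPM in the combination, 150, 154 and 135 in ipatasertib, 231, 216 and 222 in tazemetostat, and 106, 117 and 115 in DMSO. No groups overlapped, and combination B was the highest library of all. LCN2 rose 2.88-fold in the combination (log2 change 1.53, SE 0.07, edgeR adjusted p = 2.41e-13), 1.30-fold in ipatasertib (log2 change 0.38, SE 0.07, edgeR adjusted p = 0.000115) and 1.98-fold in tazemetostat (log2 change 0.99, SE 0.07, edgeR adjusted p = 8.43e-10). Combination against ipatasertib was 1.146 (SE 0.07, edgeR adjusted p = 8.75e-11), and combination against tazemetostat was 0.54 (SE 0.07, edgeR adjusted p = 1.10e-06). All neighbours in the order combination, tazemetostat, ipatasertib, DMSO differed beyond their spread. Without tazemetostat A and combination B, the log2 change was 1.49 in the combination and 0.94 in tazemetostat. Whether more cells expressed LCN2 or each cell held more of its RNA cannot be told apart in bulk RNA.

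The RefSeq promoter window of LCN2, the gene with the largest change among the 10, lies on the plus strand at chr9:128149203-128149502 (GRCh38.p14). Its C/EBP match (TTGCCCAA), at -143, stands in capitals, and it holds neither the STAT nor the FOXO motif as spelled above.
LCN2: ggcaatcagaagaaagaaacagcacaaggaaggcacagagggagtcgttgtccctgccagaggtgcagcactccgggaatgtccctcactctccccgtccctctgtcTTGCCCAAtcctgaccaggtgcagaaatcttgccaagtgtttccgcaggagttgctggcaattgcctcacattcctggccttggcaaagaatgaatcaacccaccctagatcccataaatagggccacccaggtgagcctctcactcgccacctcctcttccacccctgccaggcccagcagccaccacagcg
None of the 3 motifs was found in the windows of STAT3, STAT5A, STAT5B, IL6ST, SOCS3 or CEBPB. LCN2 was also the only one of the 10 whose group means spanned at least 1 log2 unit. The 3 other tested genes whose centred log2 CPM lay nearest to it over the 12 libraries were CD55, an inhibitor of complement, at a root mean square difference of 0.106, EHF, an epithelial transcription factor of the ETS family, at 0.112, and NT5E, a cell-surface enzyme that makes adenosine, at 0.115. CD55 averaged 465 CPM in the combination, 207 in ipatasertib, 289 in tazemetostat and 146 in DMSO.

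Whether the inhibitors together did more or less than the sum of each alone was tested as an interaction: the combination's log2 change less both single log2 changes. Among the 10 genes it was called for STAT3 only, which was higher, where 3.62% of all tested genes were called, 1.87% higher and 1.75% lower. For STAT3 the sum of the single changes was -0.34 and the change in the combination -0.02, an interaction of 0.33 (SE 0.08, edgeR adjusted p = 0.0245). That call was lost without any 1 of DMSO A, B or C, ipatasertib A, B or C, tazemetostat C or combination C, with values from 0.31 to 0.35 and adjusted p up to 0.0862. Without both tazemetostat A and combination B, the interaction of STAT3 was 0.40 (edgeR adjusted p = 1.15e-05), and SOCS3 at 0.37 (edgeR adjusted p = 0.0354) and OSMR at -0.18 (edgeR adjusted p = 0.048) were called too, with 4766 genes called in all against 539. For LCN2 the sum of the single changes was 1.37 beside 1.53 in the combination (interaction 0.16, SE 0.10, edgeR adjusted p = 0.408). For STAT5A the sum was 0.83 beside 0.96 in the combination (interaction 0.13, SE 0.14, edgeR adjusted p = 0.66), and for IL6ST -0.45 beside -0.46.

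**Figure D3:**
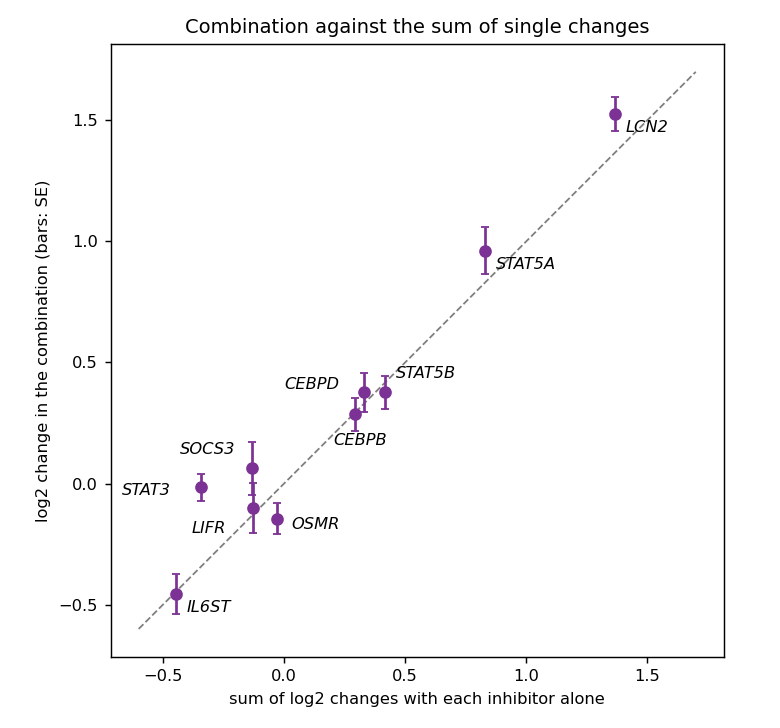
Log2 change of each gene in the combination against DMSO (vertical axis, bars are SE) over the sum of its log2 changes in ipatasertib and in tazemetostat against DMSO (horizontal axis); the dashed line marks equal values. LCN2, at 1.37 and 1.53, and IL6ST, at -0.45 and -0.46, lie near the line, and STAT3, at -0.34 and -0.02, lies above it; both axes use the same DMSO libraries.

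Between the treatment groups, combination against ipatasertib called 6 of the 10 genes (5 higher, 1 lower) beside 39.1% of all tested genes. Of all tested genes, 21.8% were called higher and 17.3% lower. Without ipatasertib C, combination A or combination C, 3 of the 10 were called, beside 4942, 6213 and 4934 of all tested genes. With all libraries 5823 of all tested genes were called. Combination against tazemetostat called 6 (3 higher, 3 lower) beside 60.6%, 29.8% higher and 30.8% lower. Without tazemetostat A and combination B it called all 10, and the count over all tested genes in that fit is not given here. Leaving out these libraries also raised the calls over all tested genes in combination against ipatasertib, from 5823 to 6987. So the call of all 10 does not set them apart. Ipatasertib against tazemetostat called 7 (2 higher, 5 lower) beside 56.3%, 24.6% higher and 31.7% lower. It called 4 without ipatasertib C, where leave-outs of 1 library gave 7456 to 9182 of all tested genes. The genes higher in ipatasertib than in tazemetostat were STAT5A, at 0.71 (SE 0.10), and CEBPD, at 0.55 (SE 0.08), while LCN2, at -0.61 (SE 0.07), and LIFR, STAT3, OSMR and CEBPB were lower.

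Of 10 cytokine genes of the IL-6 family, 4 had enough counts to be tested. All 4 fell in the combination and in ipatasertib, where 34.5% and 28.7% of all tested genes were called lower. In tazemetostat 3 fell and 1 rose, where 20.9% of all tested genes were called lower and 25.1% higher. IL6, the founding cytokine of the family, had 17.4, 22.4 and 19.1 CPM in the combination, 24.9, 25.2 and 22.8 in ipatasertib, 53.9, 51.7 and 57.6 in tazemetostat, and 31.2, 34.9 and 35.8 in DMSO. No groups overlapped, with tazemetostat highest and the combination lowest. IL6 fell by 0.79 on the log2 scale in the combination (SE 0.09, edgeR adjusted p = 1.05e-07) and by 0.48 in ipatasertib (SE 0.09, edgeR adjusted p = 9.87e-05), and rose by 0.68 in tazemetostat (SE 0.08, edgeR adjusted p = 1.43e-06). Its interaction was -0.99 (SE 0.12, edgeR adjusted p = 6.57e-05).

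LIF, the ligand of LIFR and IL6ST that starts involution in the mouse, had 16.3, 12.1 and 14.8 CPM in the combination, 9.91, 13.04 and 13.6 in ipatasertib, 23.9, 22.7 and 19.8 in tazemetostat, and 30.2, 33.4 and 27.7 in DMSO. Every treatment group lay below DMSO, and the combination and ipatasertib overlapped. LIF fell by 1.08 (SE 0.12) in the combination, by 1.34 (SE 0.12) in ipatasertib and by 0.46 (SE 0.11) in tazemetostat, with edgeR adjusted p-values of 8.28e-08, 1.93e-08 and 0.00212, and its interaction was 0.72 (SE 0.17, edgeR adjusted p = 0.019). IL11, an IL-6 family cytokine, changed by -0.61, -0.80 and -0.27 in the combination, ipatasertib and tazemetostat, with an interaction of 0.46 (SE 0.13, edgeR adjusted p = 0.0473). CLCF1, a ligand of the ciliary neurotrophic factor receptor, changed by -0.57, -0.49 and -0.19 in the same order, and its tazemetostat call was lost without DMSO A (-0.19), DMSO B (-0.20) or tazemetostat B (-0.18). The interaction of LIF was lost without DMSO A (0.74), DMSO B (0.66), ipatasertib A (0.59), tazemetostat C (0.66) or combination C (0.70). For IL11 the interaction was called in 2 of the leave-outs of 1 library, those without tazemetostat A or combination B, and the others gave 0.35 to 0.50. OSM, the ligand of OSMR, was not tested and had at most 1 count in a library.

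**Figure D4:**
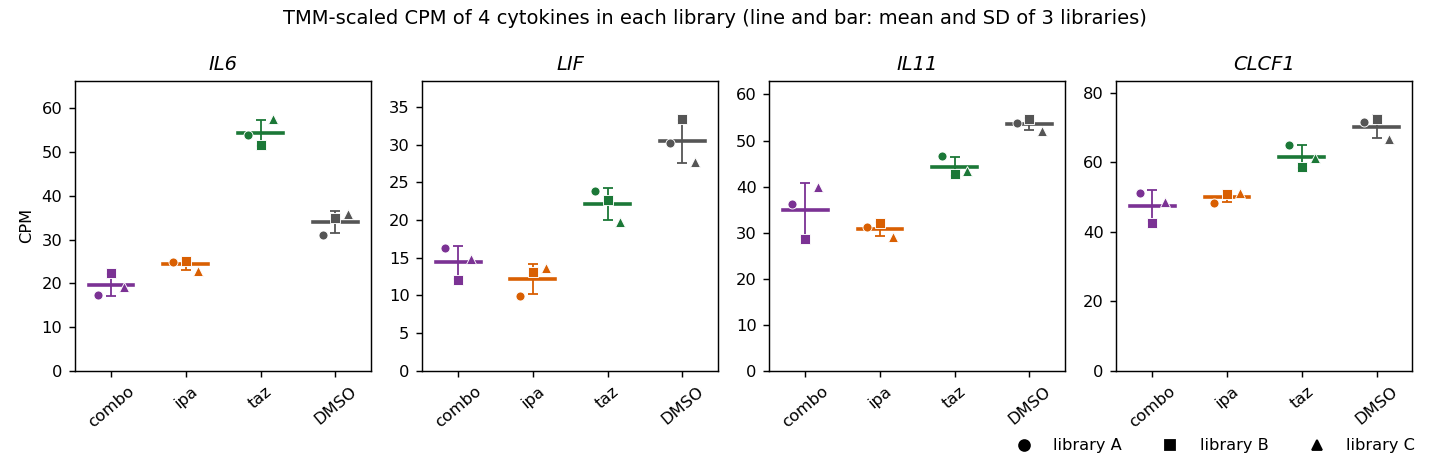
TMM-scaled CPM of the 4 tested IL-6 family cytokines in every library; columns are the combination (combo), ipatasertib (ipa), tazemetostat (taz) and DMSO, symbols are libraries A, B and C, and lines and bars are the mean and SD of 3 libraries. IL6 is highest in tazemetostat at 51.7 to 57.6 CPM, while LIF, IL11 and CLCF1 are highest in DMSO.

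In the pathway lists that follow, counts of called genes stand against shares over all tested genes of 36.5% higher and 34.5% lower in the combination, 25.4% and 28.7% in ipatasertib, and 25.1% and 20.9% in tazemetostat. Among 17 cytokine and growth factor receptors upstream of STAT3 and STAT5, 13 were tested, of which 7 rose and 4 fell in the combination, 4 rose and 4 fell in ipatasertib, and 6 rose and 3 fell in tazemetostat. The median log2 change was 0.54, 0.14 and -0.04 in these comparisons, against 0.02, -0.01 and 0.02 over all tested genes. IL7R, the interleukin-7 receptor chain, averaged 5.64 ± 0.338 CPM in the combination, 15.9 ± 1.07 in ipatasertib, 19.9 ± 2.59 in tazemetostat and 49.5 ± 5.45 in DMSO (SD, n = 3), a log2 change of -3.13 in the combination. PRLR, the prolactin receptor, which signals to STAT5, averaged 21.5 ± 1.24 CPM in the combination, 28.8 ± 2.55 in ipatasertib, 47.1 ± 6.09 in tazemetostat and 57.5 ± 3.15 in DMSO, a log2 change of -1.42 (SE 0.09). So PRLR fell in the combination while STAT5A rose. GHR, the growth hormone receptor, which also uses STAT5, averaged 5.84 ± 1.74 CPM in the combination, 2.04 ± 0.154 in ipatasertib, 2.03 ± 0.491 in tazemetostat and 0.873 ± 0.365 in DMSO, and rose by 2.77 (SE 0.26). ERBB4, a receptor kinase that activates STAT5, was called higher on few reads, with 53 counts over the combination libraries against 13 over the DMSO libraries.

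All 8 JAK, SRC and other STAT genes on the list were tested, and 3 rose and 2 fell in the combination, 4 rose and 0 fell in ipatasertib, and 2 rose and 3 fell in tazemetostat, with medians of 0.06, 0.18 and 0.02. JAK1, the main kinase of IL6ST, averaged 166 ± 11.2 CPM in the combination and 113 ± 2.38 in DMSO, a log2 change of 0.55 (SE 0.06). JAK3, the kinase of receptors with the common gamma chain, rose by 2.34 (SE 0.26), with 336 counts over the combination libraries and 76 over the DMSO libraries, and STAT2, an interferon signalling factor, by 0.52 (SE 0.07). TYK2, a JAK kinase, changed by -0.37 (SE 0.08) and SRC, a tyrosine kinase that can phosphorylate STAT3, by -0.27. JAK2, the kinase of the prolactin receptor, at -0.14, STAT4 at 0.25 (34 counts over the combination libraries and 33 over the DMSO libraries) and STAT6 at -0.14 did not pass in the combination. STAT6 passed without tazemetostat A (-0.15) or combination A (-0.22), and STAT4, at few counts, changed sign without DMSO A (-0.06) or combination B (-0.15).

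Of 18 inhibitors of JAK and STAT signalling, all tested, 2 rose and 8 fell in the combination, where 36.5% of all tested genes rose and 34.5% fell. In ipatasertib 1 rose and 8 fell, beside 25.4% and 28.7% of all tested genes, and in tazemetostat 2 rose and 4 fell. The medians were -0.12, -0.19 and 0.01. CISH, a STAT5-induced inhibitor, averaged 1.63 ± 0.17 CPM in the combination and 3.73 ± 0.455 in DMSO (SD, n = 3), a log2 change of -1.20 (SE 0.19). SOCS1, an inhibitor of JAK kinases, had 13 counts over the combination libraries against 41 over the DMSO libraries, a log2 change of -1.40 (SE 0.54, edgeR adjusted p = 0.0252) that was not called without DMSO A (-0.88) or combination B (-1.00). PTPN6, a phosphatase that acts on JAK kinases, rose by 0.50 (SE 0.06). PTPRT, a receptor phosphatase that acts on STAT3, had 73 counts over the combination libraries and 2 over the DMSO libraries.

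Of 28 known STAT3 target and acute-phase genes, 22 were tested, and 7 rose and 7 fell in the combination, 5 rose and 8 fell in ipatasertib, and 7 rose and 5 fell in tazemetostat, with medians of -0.01, -0.14 and 0.01. LRG1, a secreted acute-phase glycoprotein, averaged 4.21 ± 0.345 CPM in the combination and 1.21 ± 0.24 in DMSO, and rose by 1.82 (SE 0.18). BCL6, a transcriptional repressor, averaged 57.0 ± 1.44 CPM in the combination, 39.3 ± 1.27 in ipatasertib, 21.4 ± 0.98 in tazemetostat and 18.1 ± 1.23 in DMSO (SD, n = 3), and rose by 1.65 (SE 0.07) in the combination. CCND1, the G1 cyclin, fell by 0.90 (SE 0.06). SERPINA3, an acute-phase protease inhibitor, had 37 counts over the combination libraries and 79 over the DMSO libraries, a change of -0.87 that was not called without DMSO A (-0.75).

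Of 16 STAT5 target and milk genes, 8 were tested and 8 had too few counts, and the casein genes CSN1S1, CSN2 and CSN3 had 0 counts in all 12 libraries. Of the 8 tested, 3 rose and 4 fell in the combination, 2 rose and 4 fell in ipatasertib, and 2 rose and 0 fell in tazemetostat, with medians of -0.28, -0.21 and -0.03. The list shares CISH, SOCS1, SOCS2, BCL6, BCL2L1 and PIM1 with the lists above, and AKT1 with the genes whose products the drugs act on. XDH, a xanthine oxidoreductase needed for milk fat secretion, averaged 16.9 ± 0.265 CPM in the combination, 6.74 ± 0.377 in ipatasertib, 11.2 ± 0.928 in tazemetostat and 5.84 ± 0.222 in DMSO, and rose by 1.53 (SE 0.09). BCL6 and XDH were thus called higher in the combination, and CISH and SOCS1, the last on few counts, lower. The relation of these changes to STAT5 activity was not tested.

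Of the 4 tested C/EBP factors besides the members, 3 rose and 1 fell in the combination, 1 rose and 1 fell in ipatasertib, and 2 rose and 0 fell in tazemetostat, with medians of 0.30, 0.04 and 0.35. CEBPA, a C/EBP factor of differentiated cells, averaged 4.39 ± 0.786 CPM in the combination, 2.21 ± 0.415 in ipatasertib, 3.89 ± 0.4 in tazemetostat and 1.41 ± 0.425 in DMSO, and rose by 1.66 (SE 0.20) in the combination. DDIT3, a stress-induced C/EBP factor, rose by 0.38 (SE 0.08), and CEBPZ changed by -0.43 (SE 0.08).

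Among genes linked to mammary involution, 30 of 31 were tested, and 14 rose and 9 fell in the combination, beside 36.5% and 34.5% of all tested genes. In ipatasertib 12 rose and 9 fell, beside 25.4% and 28.7%, and in tazemetostat 8 rose and 12 fell, beside 25.1% and 20.9%. The median log2 change was 0.22, 0.02 and -0.13. IGFBP5, a secreted binder of insulin-like growth factors that STAT3 induces in the involuting mouse gland, averaged 304 ± 35.4 CPM in the combination, 4.71 ± 0.857 in ipatasertib, 69.3 ± 3.27 in tazemetostat and 3.41 ± 0.331 in DMSO, a log2 change of 6.49 (SE 0.12). BMF, which promotes apoptosis by binding BCL2 proteins, averaged 25.8 ± 1.01 CPM in the combination, 16.6 ± 0.798 in ipatasertib, 6.26 ± 0.334 in tazemetostat and 5.49 ± 0.485 in DMSO, a log2 change of 2.23 (SE 0.09). IGFBP5 was high in both groups with tazemetostat and BMF in both with ipatasertib. The proteases MMP9 and PLAU, which degrade matrix during regression, fell by 1.52 (SE 0.10) and 1.35 (SE 0.07) in the combination. Among the genes named from these lists as called in the combination, the highest edgeR adjusted p was 0.0252, for SOCS1.

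**Figure D5:**
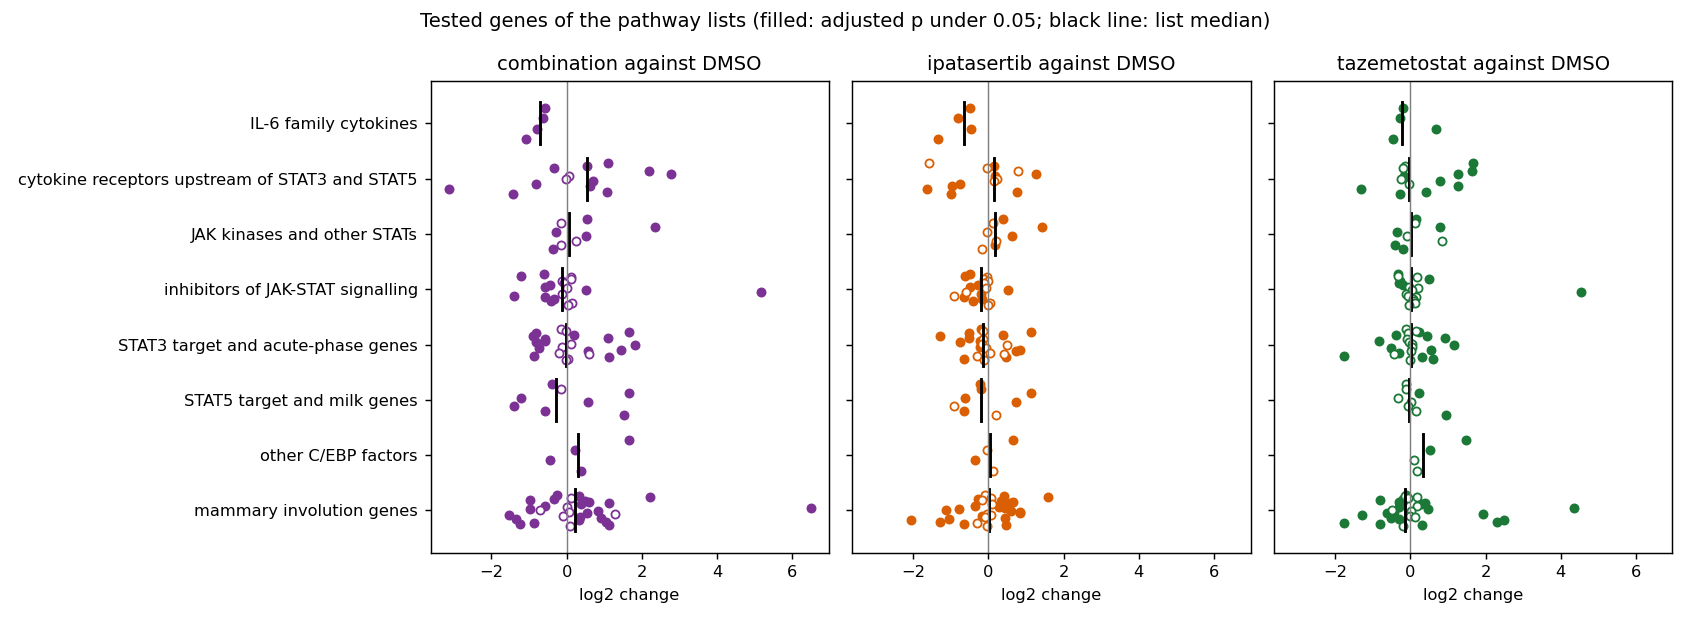
Log2 change of every tested gene in 8 pathway lists (rows) in the combination, ipatasertib and tazemetostat, each against DMSO; filled points passed the edgeR test at an adjusted p under 0.05, and black lines are list medians. The fitted value of PTPRT, at the right among the inhibitors, rests on 2 counts in DMSO. The 4 IL-6 family cytokines lie left of 0 in the combination and ipatasertib, with medians of -0.70 and -0.64, while the STAT3 target and involution lists spread to both sides.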

How the data were processed

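RNA from 12 SUM149PT libraries was counted per gene. The values deposited by the authors are raw counts. The tools HTSeq, STAR, DESeq2 and SAMtools and the build hg19 appear in the list of the submitters' processing notes, while the annotation, strand setting and tool versions were not given in the sources used here. The authors' table of normalised values was not used. The counts were analysed as deposited. Lines that name no gene, 5 per file, took 29.8% to 38.6% of each library and stayed out of library sizes and tests. No-feature reads were 22.8% to 24.5% in the combination, 23.9% to 25.7% in ipatasertib, 17.8% to 18.7% in tazemetostat and 19.1% to 20.6% in DMSO. Low genes were removed by filterByExpr and libraries scaled by TMM (edgeR 4.0.16 under R 4.3.3). A single model over the 12 libraries, with a term for each group and without a replicate term, was fitted by quasi-likelihood. The F-test was applied to 7 contrasts, with Benjamini-Hochberg adjustment over 14874 genes and a threshold of 0.05. The printed SE is approximate, since it is the absolute log2 change over root F. Replicates varied with a common biological coefficient of 0.0645. The fit was also run on simulated data in which few genes changed, in the combination alone, and every gene had the same spread. These settings differ from the data, so that run does not check the calls made here.

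The members and gene lists were chosen with earlier results of these data known. Besides the 10 genes, the text names every tested IL-6 family cytokine, JAK and STAT gene on the lists. Some genes are not reported here and were left out of the lists and their counts. From each list it names the 2 highest and 2 lowest called genes of combination against DMSO, and it names the 3 genes nearest to members whose means span 1 log2 unit. Others are named where a marker, a shared list, a count of 5 or fewer or an untested gene is described, and were chosen after their values were seen. Alternatives were RLE size factors, total counts, no filter, DESeq2 1.42.0, a replicate block, only the groups compared, leaving out each library, leaving out tazemetostat A and combination B, and a test against 1.5-fold. Strand is not known, so reads of CEBPB and CEBPB-AS1, IL6ST and AC008914.1, LIFR and LIFR-AS1, and OSMR and RICTOR, which share up to 11.8% of exon bases in the annotation at hand, cannot be told apart there.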

Additional observations from a re-analysis of the deposited data

Results flagged for a closer look

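Among the 10 genes and the 4 tested IL-6 family cytokines, the effect of ipatasertib differed in 4 genes with and without tazemetostat by a test of the difference itself, the interaction in the edgeR quasi-likelihood fit with Benjamini-Hochberg adjustment over all genes tested, where 539 genes (3.62%) were called. STAT3 had an interaction of 0.33 on the log2 scale (adjusted p = 0.0245), with a mean of 168 CPM in the combination, 141 in ipatasertib, 162 in tazemetostat and 170 in DMSO. IL6 had -0.99 (adjusted p = 6.57e-05), since it was higher than DMSO in tazemetostat and lowest in the combination. LIF had 0.72 (adjusted p = 0.019) and IL11 0.46 (adjusted p = 0.0473). Over the leave-outs of 1 library, the adjusted p went up to 0.0862 for STAT3, 0.000678 for IL6, 0.0785 for LIF and 0.163 for IL11, so IL6 alone among these passed in all 12. The reason for these differences was not tested.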

How the results depend on the processing

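Under a test against 1.5-fold, genes called were 3849 in the combination, 1089 in ipatasertib and 1094 in tazemetostat, each against DMSO, 1121 and 1999 in the combination against ipatasertib and tazemetostat, 1672 in ipatasertib against tazemetostat and 16 in the interaction. The counts of the 10 genes in that order were 2, 0, 1, 1, 1, 1 and 0. For the interaction, 539 genes became 905 without a filter on low counts (with 0 of the 10), 928 with DESeq2 and 4766 without tazemetostat A and combination B (with 3 of the 10). Leaving out 1 library gave 243 to 2443 genes and 0 to 1 of the 10 in the interaction. Among the 10, these leave-outs gave 6 to 7 in the combination, 5 to 7 in ipatasertib and 2 to 5 in tazemetostat against DMSO, 3 to 8 and 5 to 9 in the combination against ipatasertib and tazemetostat (10 without tazemetostat A and combination B), and 4 to 7 in ipatasertib against tazemetostat. Over all tested genes, the leave-outs of 1 library gave 9930 to 10865, 7009 to 8749 and 5504 to 7901 calls against DMSO. Between the treatment groups they gave 4855 to 6343, 8093 to 9266 and 7456 to 9182, in the same order. With total counts alone as the scale, the median of all genes moved by 0.14 in the combination, 0.12 in ipatasertib and 0.07 in tazemetostat. The share of higher calls was then 62.6%, 63.1% and 69.6%, against 51.4%, 46.9% and 54.6% with TMM, and 27.8% against 51.6% in the interaction. On that scale OSMR in the combination (-0.0089) and IL6ST in ipatasertib (-0.12) and tazemetostat (-0.14) were no longer called, while OSMR in tazemetostat (0.16) and CEBPB (0.17) and STAT5B (0.28) in ipatasertib became called higher. Relative to the shift, OSMR in the combination was -0.14, and IL6ST was -0.46, -0.23 and -0.21 in the combination, ipatasertib and tazemetostat. Taking off the shift gives back nearly the TMM values by construction, so these values do not check the lost calls. The other changes of sign were in values that did not pass the test. In combination against DMSO, STAT3 was 0.12 under total counts, 0.057 without tazemetostat A and combination B and -0.057 to 0.056 over leave-outs of 1 library, and LIFR was 0.035 under total counts. STAT4 there was -0.15 without tazemetostat A and combination B and -0.15 to 0.49 over leave-outs, and SOCS3 was -0.025 to 0.18. In ipatasertib, SRC was 0.080 under total counts and -0.062 to 0.0080 over leave-outs, STAT4 -0.11 to 0.42, PTPRT -2.69 to 2.06 and MMP9 -0.032 to 0.15. In tazemetostat, SOCS3 was -0.0096 with RLE factors, -0.0094 with DESeq2, -0.070 without tazemetostat A and combination B and -0.087 to 0.050 over leave-outs, and STAT3 was 0.0031 under total counts. STAT5A there was -0.020 without tazemetostat A and combination B and -0.036 to 0.094 over leave-outs, SOCS1 -0.42 to 0.42, PTPRC -0.11 to 0.28 and PTPN6 -0.0036 to 0.049. SOCS3 in the combination against tazemetostat was -0.00025 to 0.19. IL6ST in ipatasertib against tazemetostat was 0.012 with RLE factors, 0.024 under total counts, 0.013 without a filter, 0.012 with DESeq2, 0.019 with only the groups compared and -0.080 to 0.10 over leave-outs. In the interaction, LIFR was -0.022 under total counts, -0.0086 without a filter, -0.12 without tazemetostat A and combination B and -0.038 to 0.14 over leave-outs. CEBPD was -0.0023 under total counts and -0.0090 to 0.11, IL6ST -0.092 to 0.088, STAT5B 0.046 without tazemetostat A and combination B and -0.079 to 0.030, and CEBPB 0.14 without those libraries and -0.048 to 0.082. The cause of these changes was not tested. Of 18 same-letter pairs, 2 had a correlation over 0.1, tazemetostat A with combination A (0.30) and tazemetostat B with combination B (0.21). Tazemetostat C with combination C had -0.04. The labels do not say what the letters mark, so a pairing between these groups cannot be told. With the letter as a block, 10698, 8250 and 7123 genes were called in the combination, ipatasertib and tazemetostat against DMSO, 753 in the interaction, and 7, 6, 5 and 1 of the 10.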
